A study of Mus musculus with 6 samples.

Results

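The transcripts described here are those of 6 genes out of the 31253 features measured in mouse liver cells: Lrg1, Serpina3n, Serpina3g, Adamts1, Adamts4 and Adamts9. The genes were chosen by their endothelial UMI levels in these same libraries, so their endothelial changes are given as a description, with a standard error and without a test. UMI counts of each symbol were summed per library and cell type, and the endothelial level was set beside that of hepatocytes and neutrophils to ask which cells held the RNA in the pre-metastatic liver. A UMI is a molecular tag that lets each captured RNA molecule be counted once, and a level is given in CPM, the UMIs of the gene for every 1000000 UMIs of the cell type in that library.

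The 6 libraries were single-cell suspensions of whole mouse livers, digested with collagenase II, depleted of erythrocytes and dead cells and captured on the BD Rhapsody system. The control libraries, 2 in number, carry the genotype label ctrl. The 2 pre-metastatic and the 2 macro-metastatic libraries come from an orthotopic colorectal cancer model, and the labels of all 6 libraries name CT26-GFP, mouse colon cancer cells that make a green fluorescent protein. The labels give no strain, age or sampling day, nor do they say that replicates were separate animals, so the spread between replicates may be technical.

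Lrg1 encodes leucine-rich alpha-2-glycoprotein, a secreted protein that hepatocytes make during the acute-phase response, that neutrophils store in granules, and that activated endothelium makes, where it is known to bend TGF-beta signalling towards vessel growth. Serpina3n and Serpina3g belong to the mouse cluster of clade A serpins, inhibitors that trap serine or cysteine proteases. Serpina3n is secreted, is an acute-phase gene of liver and inhibits granule proteases such as granzyme B and cathepsin G, and Serpina3g stays inside the cell and inhibits lysosomal cathepsins. Adamts1, Adamts4 and Adamts9 encode secreted metalloproteases with thrombospondin repeats that cleave proteoglycans such as versican in the matrix.

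The libraries held 71908 barcodes, of which 65398 were kept as cells, and their totals were 88986627 and 90819751 UMIs at the macro-metastatic stage against 41914149 to 51750676 in the other 4. Between 126 and 222 barcodes were shared by any pair of libraries, at most 1.87% of the smaller. Endothelial cells numbered 2704 and 4348 in the controls, 1219 and 2642 at the pre-metastatic stage, then 1848 and 2729 at the macro-metastatic stage, and all 12 endothelial markers were detected in each, with a summed level of 21714 to 25963 CPM. Hepatocytes numbered 579 to 908 in the control and pre-metastatic libraries but 17 and 106 in the macro-metastatic ones, so macro-metastatic hepatocyte values rest on few cells. Neutrophils numbered 116 and 229, then 1362 and 931, then 3569 and 3633. The macro-metastatic libraries stood apart from each other within the endothelium: 71.5% of the endothelial cells of macro-metastatic 1 lay in cluster 9 and 94.9% of those of macro-metastatic 2 in cluster 15.

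In the pre-metastatic liver the genes fell into 2 sets when endothelium was set against hepatocytes. Serpina3g, Adamts1, Adamts4 and Adamts9 had a higher endothelial than hepatocyte level in both pre-metastatic libraries, 4 of 6 genes, while Lrg1 and Serpina3n were higher in hepatocytes. The endothelial level exceeded that of neutrophils for 5 of 6 genes, Lrg1 being the exception. Both counts stayed at 4 and 5 when predicted doublets were kept, when cells were gated one by one on markers and when either pre-metastatic library was left out. All 6 genes had endothelial levels that did not overlap between the control and pre-metastatic libraries, nor between the control and macro-metastatic ones. Of all 12550 genes tested in endothelium, 18.9% and 26% were likewise higher without overlap in those comparisons, and 0.231% and 25.3% were called at an adjusted p under 0.05 (edgeR's quasi-likelihood test, Benjamini-Hochberg adjustment). The choice of the genes used these values, so nothing is read from their count.

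**Figure D1:**
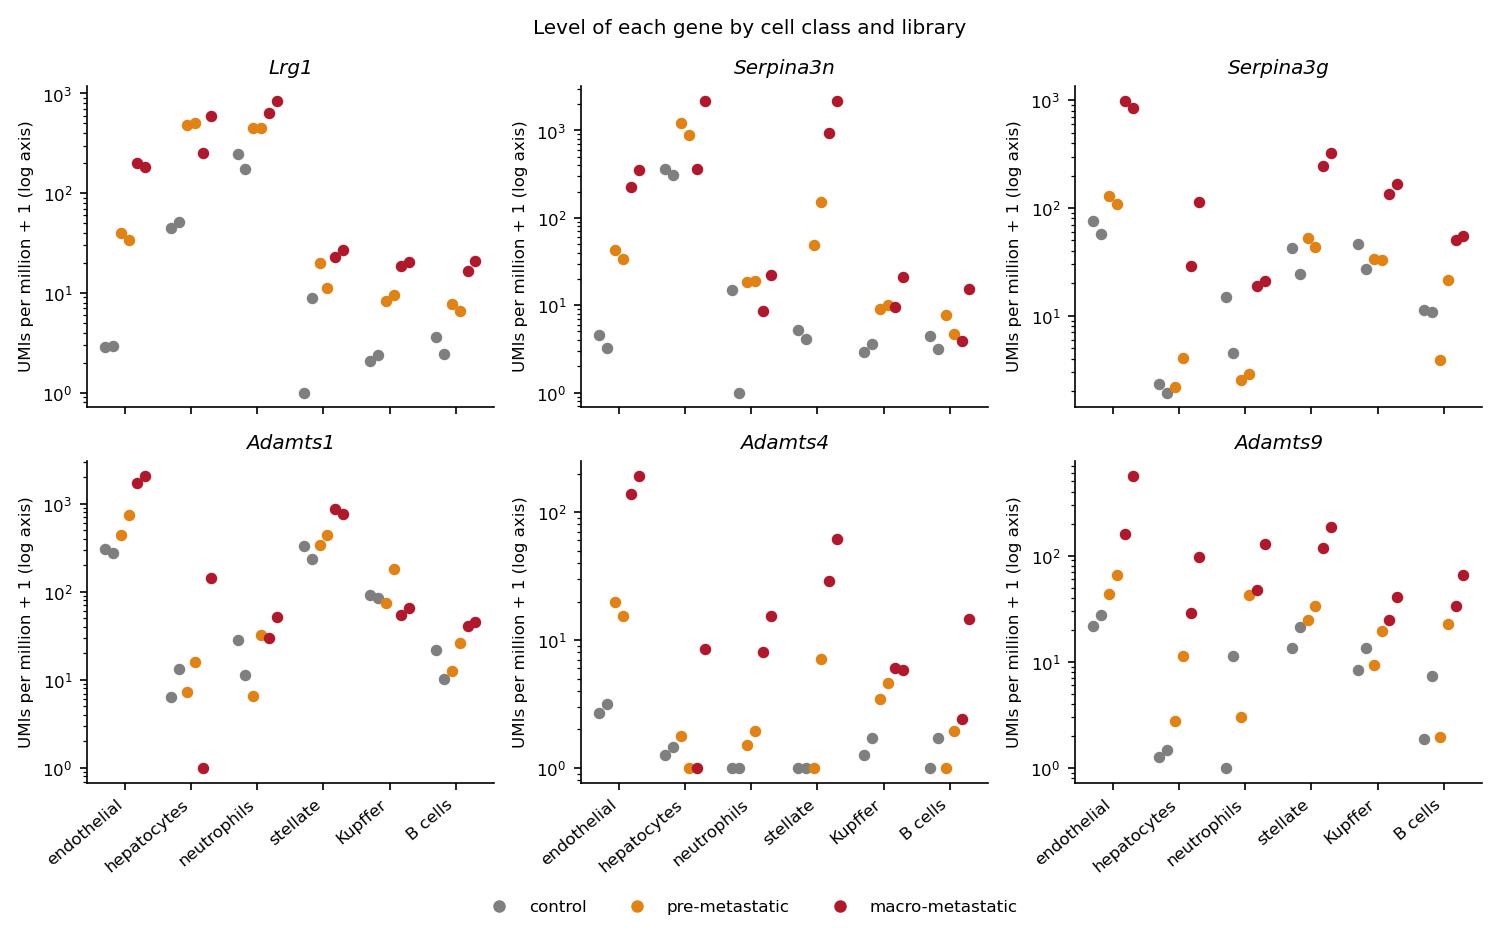
Level of each of the 6 genes in 6 cell classes, as CPM plus 1 on a log axis, with a point per library coloured by group. Pre-metastatic Lrg1 stands at 486 and 500.5 CPM in hepatocytes against 39.0 and 32.6 in endothelium, while pre-metastatic Adamts1 stands at 439.6 and 737 in endothelium against 6.21 and 15.1 in hepatocytes.

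Lrg1 was near the limit of detection in control endothelium, at 1.89 and 1.95 CPM from 18 and 26 UMIs. In the pre-metastatic libraries its endothelial level was 39.0 and 32.6 CPM, and in the macro-metastatic libraries 198 and 182. Each group thus lay wholly above the one before it, with close replicates. The pooled endothelial level was 18.0-fold the control at the pre-metastatic and 98.4-fold at the macro-metastatic stage, as log2 fold changes 4.21 (SE 0.18) and 6.80 (SE 0.19).

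Hepatocytes held a higher Lrg1 level in CPM than endothelium in every library. Their levels were 43.6 and 50.6 CPM in the controls, 486 and 500.5 at the pre-metastatic stage, then 250.4 and 588 at the macro-metastatic stage, the 250.4 coming from 9 UMIs. The pre-metastatic hepatocyte level was 12.4 and 15.3 times the endothelial level of the same library. Lrg1 rose in pre-metastatic hepatocytes by a log2 fold change of 3.35 (SE 0.45, adjusted p = 0.00129 by edgeR), and this call held in 11 of 11 alternatives. It was the 1 called gene among the 5 of the 6 that were tested in pre-metastatic hepatocytes, where 1.48% of 10000 genes were called (0.99% higher, 0.49% lower). Its macro-metastatic rise of 2.92 (SE 0.46, adjusted p = 0.000735 by edgeR) rested on macro-metastatic 2, without which the value was 1.60 with an adjusted p of 0.0691 by the same test.

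Neutrophils carried Lrg1 already in the controls. Their levels were 248 and 174 CPM in the controls, 445 and 449.7 at the pre-metastatic stage, then 629 and 847 at the macro-metastatic stage. The groups did not overlap, and the pre-metastatic level was 11.4 and 13.8 times that of endothelium. The pre-metastatic change of 1.197 (SE 0.25) did not pass edgeR's test (adjusted p = 0.574), whereas DESeq2 gave an adjusted p of 0.0117. In this comparison edgeR called 0 of 7991 genes (0%), with 608 at an unadjusted p under 0.05, and DESeq2 called 22. The macro-metastatic rise of 1.94 (SE 0.25) passed with an adjusted p of 0.00320 by edgeR and in 12 of 12 alternatives; 9.87% of genes were called there (5.22% higher, 4.66% lower).

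Summed over cells, hepatocytes held 59.5% and 53.8% of all Lrg1 UMIs of the pre-metastatic libraries, neutrophils 20.8% and 17.2%, and endothelial cells 4.52% and 12.8%. Monocytes and macrophages held 8.37% and 1.44%, at levels of 71.1 and 25.1 CPM (352 and 40 UMIs), so that in pre-metastatic 1 their Lrg1 level was above the endothelial 39.0. Their control levels were 0 and 3.62 CPM, and their macro-metastatic levels 78.5 and 112.7. The class of monocytes and macrophages includes cluster 29 (912 cells, predicted doublets included), led by Mpo, Ctsg, Prtn3 and Elane. This cluster had 0 of the class markers among its 10 leading genes, and its part of the Lrg1 UMIs was not taken apart. In the macro-metastatic libraries the order was another: neutrophils held 53.7% and 52.8% and endothelial cells 25.1% and 27.7%, while hepatocytes held 0.0836% and 2.03%. These shares follow the numbers of each cell type recovered after digestion as well as the level per cell.

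RNA that leaks from hepatocytes can be captured with other cells, so the endothelial level was set beside the level that such carry-over would give. Alb, Apoa1 and Ttr, secreted products of hepatocytes, were measured in both classes, and the largest of the 3 ratios of endothelial to hepatocyte level was taken as the carried share, 1.08% to 3.81% across the libraries. In the controls the observed Lrg1 level was 1.64 and 1.01 times the carried level. In the pre-metastatic libraries the observed level was 4.30 and 2.88 times the carried level, and in the macro-metastatic ones 73.5 and 17.0 times. For Serpina3n the ratios were 0.375 and 0.192 in the controls, 1.88 and 1.67 at the pre-metastatic stage, then 57.6 and 8.69 at the macro-metastatic stage. In control endothelium Serpina3n was below the carried level and Lrg1 at up to 1.64 times it, and both were above it in the later groups. For neutrophils, with S100a8, S100a9 and Retnlg as the markers, the pre-metastatic Lrg1 level of endothelium was 56.1 and 32.0 times the carried level.

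Acute-phase genes of hepatocytes gave a reference for this check, with B cells, which are not known to make them, as a second class. In the pre-metastatic libraries Lrg1 was 5.84 and 5.84 times as high in endothelium as in B cells, and Serpina3n 6.33 and 8.90 times. The serum amyloid gene Saa1 was 0.604 and 0.702 times as high, and Saa2 0.641 and 0.625 times. The orosomucoid gene Orm2 had ratios of 0.696 and 0.749, the haptoglobin gene Hp 0.796 and 0.769, Lcn2 0.566 and 1.10, and Alb 0.613 and 0.922. Of these genes, Lrg1 and Serpina3n had ratios above 1 in both pre-metastatic libraries. In the macro-metastatic libraries other genes did too: Lrg1 had 12.7 and 9.12 and Serpina3n 79.1 and 24.4, beside 1.42 and 1.11 for Saa1, 2.18 and 1.03 for Saa2, 2.09 and 1.06 for Orm2, 1.38 and 2.30 for Hp and 2.46 and 1.72 for Alb. Against the level carried over from hepatocytes in the pre-metastatic libraries, Saa1 stood at 0.269 and 0.317 and Saa2 at 0.326 and 0.336. Orm2 stood there at 0.240 and 0.272, Lcn2 at 0.266 and 0.318 and Hp at 0.626 and 0.973. Pre-metastatic B cells held 7 and 6 UMIs of Lrg1 and 7 and 4 of Serpina3n. Macro-metastatic B cells held 11 and 28 UMIs of Lrg1 and 2 and 20 of Serpina3n, so the B-cell denominators are small. The reference genes and B cells were chosen after the data had been seen.

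**Figure D2:**
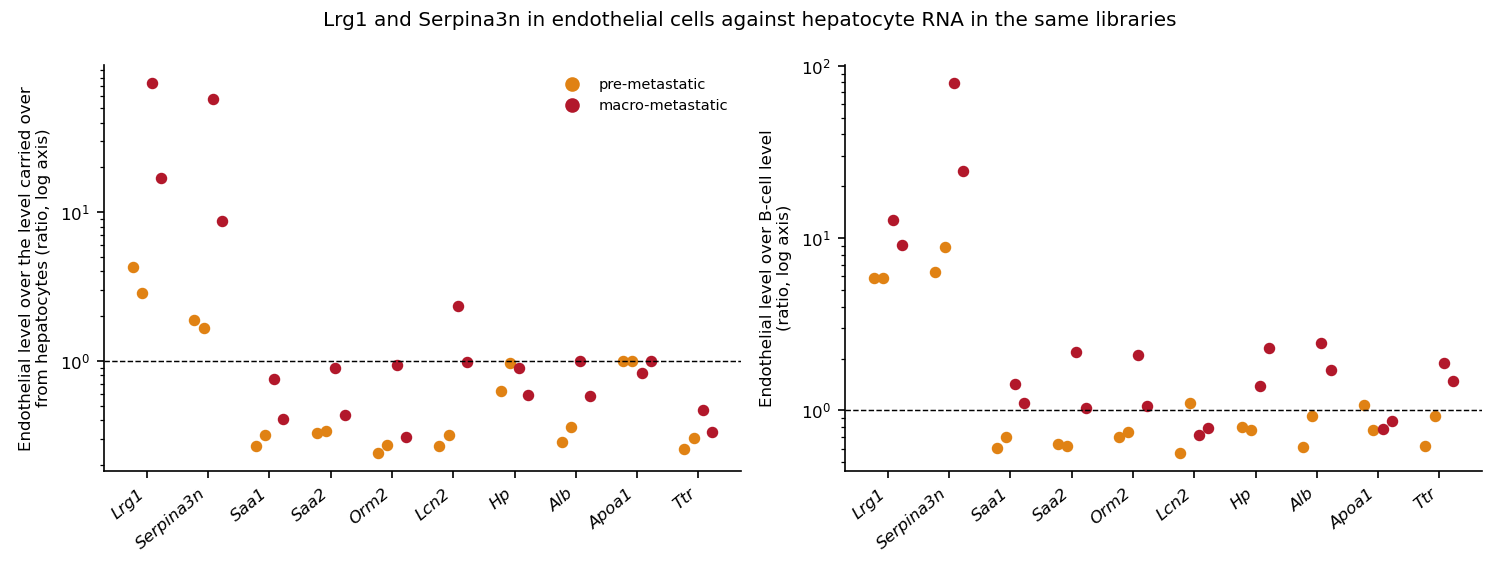
Endothelial level of each gene divided by the level carried over from hepatocytes (left) and by the B-cell level (right) on log axes, with a point per pre-metastatic and macro-metastatic library and a dashed line at 1. The largest of Alb, Apoa1 and Ttr is 1 at left by construction; pre-metastatic Lrg1 stands at 4.30 and 2.88 at left, where Saa1 stands at 0.269 and 0.317.

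Endothelial cells that held 3 or more endothelial markers and no UMI of the 3 hepatocyte or 3 neutrophil markers of this check, nor of the Kupffer markers Clec4f, Cd5l and Vsig4, were summed apart. Lrg1 was at 2.00 and 1.21 CPM in such control cells, 37.6 and 32.1 at the pre-metastatic stage and 199.6 and 205 later. Serpina3n was at 2.996 and 1.81, then 47.4 and 30.6, then 133 and 349; the 133, from 16 UMIs, compares with 225 in all endothelial cells of macro-metastatic 1, and the 1.21 of Lrg1 with 1.95 in all those of control 2. The gate left 685 and 1867, 610 and 1157, and 66 and 158 endothelial cells in the 3 groups. Saa1 was still at 85.5 and 48.3 CPM in the gated pre-metastatic cells, beside 106 and 63.5 in all endothelial cells. For Saa2 the gated values were 76.2 and 27.7, beside 92.4 and 41.4. Genes below the carried level thus passed the gate too, so it cannot decide which cells made an RNA. Across all endothelial cells the hepatocyte markers summed to 845 and 537 CPM in the controls, 287 and 380 at the pre-metastatic stage, then 248 and 328 at the macro-metastatic stage, with all 13 detected in each. Neutrophil markers moved the other way, from 5.97 and 11.7 to 102 and 85.3 and then 688 and 441, with 8 and 11 of 12 detected in the controls and 12 of 12 later.

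Serpina3n was a hepatocyte transcript first. Its hepatocyte level was 360 and 307 CPM in the controls, 1203 and 877 at the pre-metastatic stage, then 362 and 2197 at the macro-metastatic stage. The pre-metastatic libraries lay above the controls, while the macro-metastatic pair spanned them, with 13 UMIs in macro-metastatic 1. The pre-metastatic hepatocyte difference was 1.60 on the log2 scale (SE 0.63) and did not pass the test (adjusted p = 0.315 by edgeR; called in 2 of 11 alternatives).

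In endothelium Serpina3n stood at 3.56 and 2.25 CPM in the controls, 42.3 and 33.2 at the pre-metastatic stage, then 225 and 348 at the macro-metastatic stage. The 3 groups did not overlap, and the pooled levels were 12.9-fold and 105-fold the control, as log2 fold changes 3.72 (SE 0.33) and 6.83 (SE 0.35). Hepatocytes exceeded endothelium 28.4 and 26.4 times in the pre-metastatic libraries. Neutrophils were at 13.8 and 0, 17.3 and 17.8, and 7.52 and 21.4 CPM, which is 0.518 and 0.311 times the level carried over from hepatocytes in the pre-metastatic libraries.

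Stellate cells and fibroblasts, the matrix-producing cells of liver, also held Serpina3n. Their levels were 4.19 and 3.12 CPM in the controls from 3 UMIs in all, 47.3 and 153 at the pre-metastatic stage, then 939.8 and 2189.7 at the macro-metastatic stage. The stellate level was above the endothelial one in both pre-metastatic and both macro-metastatic libraries, the 47.3 resting on 10 UMIs in 18 cells. Stellate cells held 17.6% and 41.6% of all macro-metastatic Serpina3n UMIs against 69.8% and 43.4% for endothelium. Hepatocytes had held 92.1% and 78.5% at the pre-metastatic stage, endothelium 3.06% and 10.8%.

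Serpina3g was an endothelial transcript in every group. Its endothelial level was 74.6 and 56.9 CPM in the controls, 127 and 108 at the pre-metastatic stage, then 993 and 854 at the macro-metastatic stage. The pre-metastatic pair lay above the controls by a pooled 1.77-fold (log2 0.83, SE 0.19), and the macro-metastatic pair by 14.2-fold (log2 3.98, SE 0.21). Pre-metastatic hepatocytes held 1.16 and 3.01 CPM from 6 and 9 UMIs and neutrophils 1.52 and 1.88 from 3 and 2 UMIs, so the endothelial level was 109 and 35.8 times the hepatocyte level. Kupffer cells, the resident macrophages of the sinusoids, had 45.5 and 26.3 in the controls, 32.3 and 32.3 at the pre-metastatic stage, then 133 and 166 at the macro-metastatic stage; the pre-metastatic pair lies within the control range and the macro-metastatic pair above it.

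Counts of the serpins carry an uncertainty that the others do not. Serpina3g lies in the serpin cluster at chr12:104236245-104241939 (plus strand, 5 exons; GENCODE vM21 on GRCm38), and 15.1% of the 31-base words in the last 500 bases of its transcript also occur in other genes, chiefly Serpina3f with 10.4%, so reads could be split between these copies. For Serpina3n at chr12:104406729-104414329 (plus strand, 5 exons) the share was 1.70%, with Serpina3i. For Lrg1 at chr17:56119678-56122001 (minus strand, 2 exons), Adamts1 at chr16:85793827-85803113 (minus, 9 exons), Adamts4 at chr1:171250421-171260637 (plus, 9 exons) and Adamts9 at chr6:92772699-92943492 (minus, 40 exons) it was 0%.

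The 2 serpin genes had different fold changes in pre-metastatic endothelium (12.9 and 1.77), and their upstream sequences are shown because they are related in part. RefSeq entries (GRCm38.p6) matched 5 of the 6 genes. The 250 bases before each start are printed 5′ to 3′, with the stretch that aligns between them in capitals (Serpina3n chr12:104406458-104406707, Serpina3g chr12:104235897-104236146, both plus strand):
Serpina3n: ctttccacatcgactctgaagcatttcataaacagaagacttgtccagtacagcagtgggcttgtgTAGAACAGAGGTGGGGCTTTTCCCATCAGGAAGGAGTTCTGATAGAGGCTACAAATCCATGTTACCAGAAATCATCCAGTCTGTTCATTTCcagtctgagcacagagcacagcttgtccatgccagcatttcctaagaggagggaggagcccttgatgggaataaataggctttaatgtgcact
Serpina3g: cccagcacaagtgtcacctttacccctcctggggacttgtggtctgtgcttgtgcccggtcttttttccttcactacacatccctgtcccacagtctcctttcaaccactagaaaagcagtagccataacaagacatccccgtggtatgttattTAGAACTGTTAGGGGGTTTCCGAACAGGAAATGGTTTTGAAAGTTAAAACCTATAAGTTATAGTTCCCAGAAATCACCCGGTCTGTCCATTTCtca
The capitals span positions -184 to -94 in Serpina3n and -96 to -4 in Serpina3g, counted from the RefSeq start, and 69 of 98 aligned columns were identical (70.4%). The windows end at 104406707 and 104236146, upstream of the GENCODE gene starts at 104406729 and 104236245. All positions given here therefore depend on the annotation, and the shift between the 2 genes does too. A search of both strands for the STAT-type motif TTCNNNGAA found it in Serpina3g alone of the 5, as TTCCCAGAA at -33 to -25 in its capitals. It occurs in 7.02% of 32851 promoters of the same length. The NF-kB-type motif of GGG, any 5 bases and CC was in all 5 and in 45.8% of promoters, with overlapping matches on the 2 strands in Serpina3n and Adamts9. The AP-1 motif TGANTCA (6.75% of promoters) and the C/EBP motif TTGCNNAA (9.56%) were in none of the 5 windows, and TATAAA was in Adamts1 alone (12.4% of promoters). A match describes letters and not a bound site.

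Adamts1 was the gene of the 3 proteases with UMIs in the most control endothelial cells. Its endothelial level was 301 and 276 CPM in the controls, 439.6 and 737 at the pre-metastatic stage, then 1698 and 2061 at the macro-metastatic stage. The groups did not overlap, but the pre-metastatic replicates differed by more than the control replicates did. The pooled folds were 2.25 and 6.64, as log2 fold changes 1.04 (SE 0.28) and 2.88 (SE 0.30). Without pre-metastatic 2, the higher of the pair, the pre-metastatic value was 0.55 on the log2 scale.

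Hepatocytes held 5.38 and 12.2 CPM of Adamts1 in the controls and 6.21 and 15.1 in the pre-metastatic libraries, and neutrophils 27.6 and 10.5, then 5.58 and 30.98. The endothelial level exceeded that of hepatocytes 70.8 and 48.9 times and that of neutrophils 78.7 and 23.8 times in the pre-metastatic libraries. Carry-over in the other direction was measured with the endothelial markers Kdr, Stab2 and Clec4g, a choice made after the data had been seen. By that measure pre-metastatic hepatocytes had 0.608 and 0.472 times the level that leaked endothelial RNA would give, and neutrophils 0.311 and 0.417 times. Stellate cells held Adamts1 too, at 331 and 235 CPM in the controls, 336 and 439.7 at the pre-metastatic stage, then 878 and 764 at the macro-metastatic stage. Pre-metastatic basophils and mast cells had 157 and 428 CPM from 115 and 181 UMIs. Cholangiocytes had 98.5 and 109 CPM there and Kupffer cells 73.7 and 178.

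Adamts4 was close to absent from control endothelium, at 1.68 and 2.17 CPM from 16 and 29 UMIs. It was at 18.9 and 14.4 CPM at the pre-metastatic stage, then 138 and 190.3 at the macro-metastatic stage. The groups were separate, with pooled levels 8.03-fold and 85.3-fold the control and log2 fold changes of 3.07 (SE 0.28) and 6.57 (SE 0.28). Hepatocytes held 4 and 0 UMIs of Adamts4 in the pre-metastatic libraries and neutrophils 1 and 1, too few for a level, and the gene was not tested in hepatocytes because it failed the filter on low counts there. Neutrophils had 0 UMIs in the controls and 65 and 103 in the macro-metastatic libraries, at least 1.48-fold higher when the controls are set at a floor of 3 UMIs over the group. Macro-metastatic neutrophil levels were 1.05 and 1.26 times those carried over from endothelium.

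Adamts9 had endothelial levels of 20.6 and 26.4 CPM in the controls, 42.5 and 65.3 at the pre-metastatic stage, then 158 and 560.1 at the macro-metastatic stage. The groups did not overlap, but macro-metastatic 2 was far above macro-metastatic 1. The pooled folds were 2.43 and 16.0, as log2 fold changes 1.22 (SE 0.54) and 4.12 (SE 0.59), the largest standard errors among the 6 genes in endothelium. Without pre-metastatic 2 the pre-metastatic value was 0.80, and without macro-metastatic 2 the macro-metastatic value was 2.90 on the log2 scale, and over all 12 alternatives it lay between 2.90 and 4.80.

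Adamts9 was higher in another class than in endothelium in both pre-metastatic libraries. Cholangiocytes, the bile duct cells, had 97.6 and 139 CPM in the controls, 131 and 86.2 at the pre-metastatic stage, then 212 and 197 at the macro-metastatic stage, the 131 resting on 8 cells and 8 UMIs. In pre-metastatic 2 the endothelial level was only 1.58 times that of neutrophils (41.3 CPM from 44 UMIs), against 20.9 times in pre-metastatic 1 (2.03 CPM from 4 UMIs). The neutrophil level of pre-metastatic 2 was 6.28 times what endothelial carry-over would give, and that of pre-metastatic 1 was 1.17 times. This difference between the libraries was not particular to neutrophils. NK cells had 2.98 and 59.3 CPM in pre-metastatic 1 and 2, B cells 0.955 and 21.4, and T cells 8.79 and 27.7. The NK-cell and the B-cell levels each came from 1 and 23 UMIs. Cholangiocytes went the other way, and the cause was not tested. In hepatocytes the pre-metastatic difference was 3.75 (SE 1.05) and did not pass the test (adjusted p = 0.106 by edgeR; called in 3 of 11 alternatives).

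In macro-metastatic hepatocytes, where 13.9% of 10000 genes were called (8.74% higher, 5.18% lower), Lrg1, Serpina3g, Adamts1 and Adamts9 were called and Serpina3n was not (1.68, adjusted p = 0.0932 by edgeR). The log2 fold changes were 5.91 (adjusted p = 6.74e-05) for Serpina3g, 3.46 (adjusted p = 0.00150) for Adamts1 and 7.35 (adjusted p = 0.000156) for Adamts9, all by edgeR. Each rested on macro-metastatic 2: without it Serpina3g had 3.67 (adjusted p = 0.404) and Adamts9 5.33 (adjusted p = 0.413) by the same test, each from 1 UMI. Adamts1 then had 0 UMIs in the 17 cells left, too few for a fold, and was not called. Endothelial markers in these hepatocytes summed to 1252 and 2431 CPM, against 414 to 727 in the other 4 libraries. In macro-metastatic 2 the hepatocyte levels of Serpina3g, Adamts1 and Adamts9 were 0.997, 0.514 and 1.28 times those carried over from endothelium.

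By edgeR none of the 6 genes was called in pre-metastatic neutrophils, where DESeq2 called Lrg1 as given above. Lrg1 was the only 1 of the 6 called in macro-metastatic neutrophils, where 9.87% of all genes were called. There the other 5 had log2 fold changes of 1.35 to 8.15 with adjusted p-values of 0.104 to 0.419 by edgeR. Serpina3n, Serpina3g, Adamts1, Adamts4 and Adamts9 rested on 0 to 7 UMIs each in the control neutrophils, which were few. Simulated counts had 200 genes changed by a log2 fold of 2 in the pre-metastatic libraries. The same test recovered 90% of them in endothelium, 92.5% in hepatocytes and 53% in neutrophils. Recovery in the macro-metastatic comparison was not simulated. The simulation gave every gene the same spread, which real genes do not have, so these shares need not hold for the real counts.

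The change in endothelium was also seen as a share of cells. Each cell with 1000 or more UMIs was thinned to 1000, since macro-metastatic endothelial cells were deeper (medians of 6672.5 and 5946 UMIs against 2696 to 3460 in the other 4 libraries). This left out 167 and 270 control, 82 and 107 pre-metastatic and 150 and 204 macro-metastatic endothelial cells, and 77 and 106, 70 and 84, and 9 and 12 B cells. Lrg1 was then found in 0.276% and 0.319% of control, 4.22% and 2.998% of pre-metastatic and 16.8% and 15.2% of macro-metastatic endothelial cells; at full depth these shares were 0.666% and 0.575%, 12.2% and 9.46%, and 56.3% and 46.5%. In B cells, with medians of 1333 to 2248 UMIs, the thinned Lrg1 share was 0.523% and 0%, 0.887% and 0.350%, and 3.07% and 2.36%. The control endothelial shares thus lay between those of the control B cells, and at each later stage the endothelial shares lay above those of the B cells of the same group. The 0% is 0 of 740 cells, which allows a share of up to 0.405% (3 cells).

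Serpina3n showed the same order, with thinned endothelial shares of 0.355% and 0.172%, 3.34% and 2.52%, and 16.7% and 25.4%. Adamts4 was in 0.158% and 0.147%, 2.02% and 1.81%, and 10.1% and 14.7% of cells. Serpina3g was in 6.74% and 5.64%, 11.3% and 10.1%, and 54.8% and 49.3%. Adamts1 reached 19.6% and 18.9%, 24.98% and 36.5%, and 56.7% and 69.0%, and Adamts9 2.33% and 2.33%, 3.78% and 6.59%, and 13.5% and 39.8%. At full depth a single endothelial cell held UMIs of 3 or more of the 6 genes in 1.37% and 0.874% of control, 13.9% and 11.7% of pre-metastatic and 74.0% and 85.5% of macro-metastatic cells, a count that depth also raises.

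**Figure D3:**
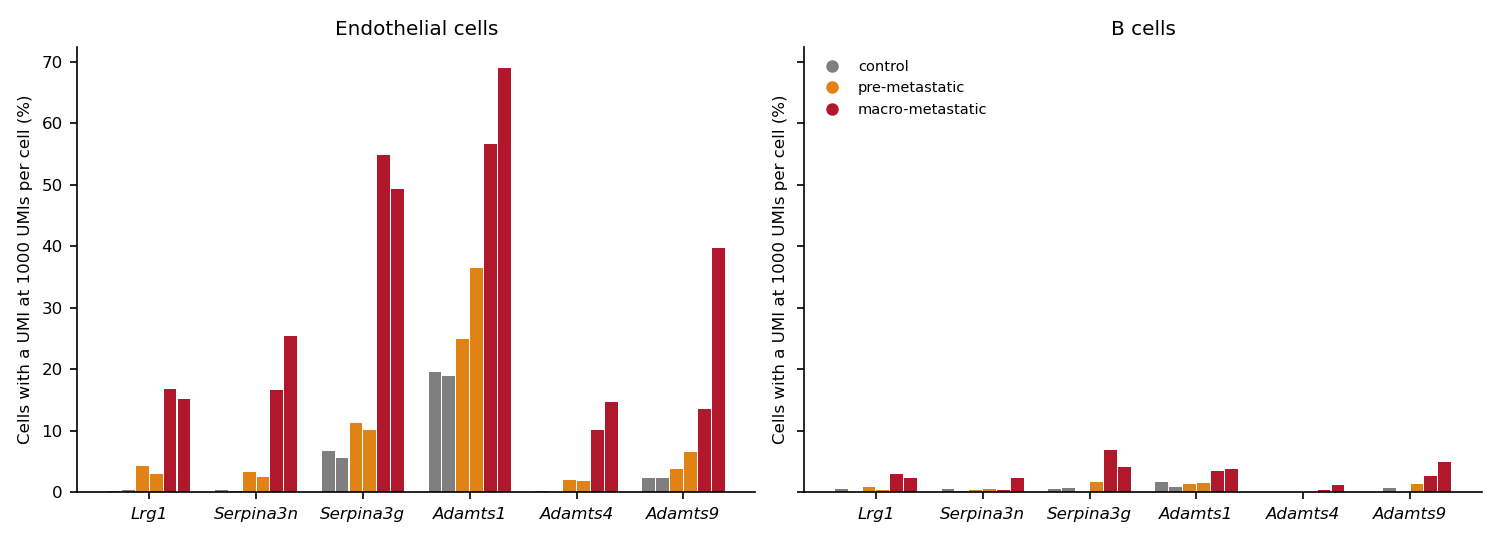
Share of endothelial cells (left) and B cells (right) with a UMI of each gene after thinning every cell to 1000 UMIs, in percent, with a bar per library coloured by group. Adamts1 reaches 56.7% and 69.0% of macro-metastatic endothelial cells, and no gene passes 6.90% of B cells in any library.

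The endothelium was split into 5 clusters, and the genes did not behave alike across them. Cluster 5 (leading genes Tinagl1, Bmp6 and Cyp4b1) held 78.3% and 63.5% of control endothelial cells and 7.68% and 0.623% of macro-metastatic ones. Cluster 9 (Cyp26b1, Gpr182, Selp and Adamts1 among its leading genes) and cluster 15 (Inhbb, Thbd and Adamts9 among them) made up more of the later libraries, and since Adamts1 and Adamts9 help define these clusters, their levels there are no separate result. Cluster 7 (Rspo3, Vwf and Edn1), which had the highest summed large-vessel markers in each library, made up 1.17% to 7.65% of the class.

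Lrg1 was highest in cluster 7 in every library with 10 or more cells. It stood at 5.87 and 6.71 CPM there in the controls, 88.9 and 129.8 at the pre-metastatic stage, then 628 and 1372 at the macro-metastatic stage. In cluster 5 it was 1.59 and 1.45, then 30.3 and 25.1, then 151 and 190.1, the 190.1 coming from 4 UMIs. The control values of cluster 7 rest on 3 and 5 UMIs. Serpina3n in cluster 7 was 7.82 and 5.37, then 77.8 and 129.8, then 483 and 1269, and in cluster 5 it was 2.52 and 1.57, then 18.8 and 17.5, then 79.8 and 143.

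Adamts1 varied between clusters. Within cluster 5 it was 301 and 268 CPM in the controls, 297 and 362 at the pre-metastatic stage, then 349 and 238 at the macro-metastatic stage, which overlap, and within cluster 8 (Fbxl7, Stox2) it was 193 and 217, then 295 and 369.8, then 255 and 202, the macro-metastatic pair again overlapping the controls. In cluster 9 it was 606 and 622, then 633 and 945, then 1766 and 1579. In cluster 7 it went from 260.1 and 334 to 456 and 605 and then 1012 and 1308. Serpina3g within cluster 5 was 69.0 and 53.5, then 100.4 and 83.3, then 555 and 380.2, with no overlap. The values in macro-metastatic 2 come from 17 cells in cluster 5 and 18 in cluster 8. Cells rich in Adamts1 may have been placed in cluster 9, so its lower levels in clusters 5 and 8 are no separate result either.

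**Figure D4:**
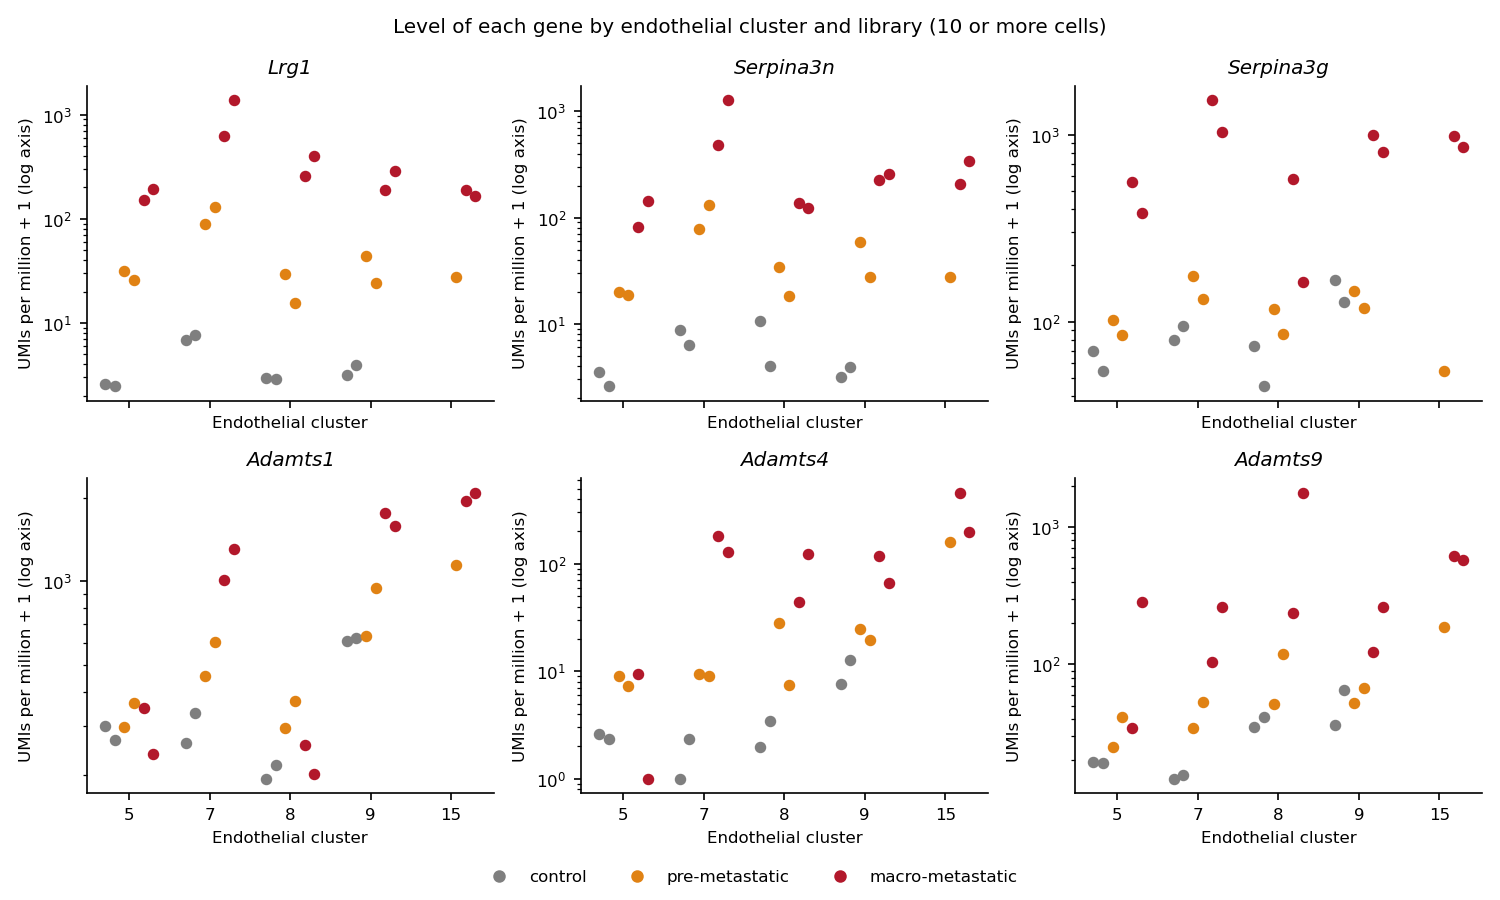
Level of each gene in the 5 endothelial clusters, as CPM plus 1 on a log axis, with a point per library that has 10 or more cells in the cluster. Lrg1 is highest in cluster 7 (628 and 1372 CPM in the macro-metastatic libraries), and Adamts1 in cluster 5 overlaps between the groups.

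Genes around the 6 were read from lists whose members were chosen with earlier results of these data known. Over all 12550 genes tested in endothelium the median log2 fold change was -0.01 in the pre-metastatic and -0.02 in the macro-metastatic comparison. The pre-metastatic comparison called 29 genes (0.231%), 28 of them higher (0.223%) and 1 lower (0.00797%), and this count was 1 without control 1, 2 without control 2, 13 without pre-metastatic 2, 73 without pre-metastatic 1, 276 without macro-metastatic 1 and 282 without macro-metastatic 2.

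Of the other ADAMTS proteases and ADAMTS-like proteins, 9 of 22 were tested. At the pre-metastatic stage edgeR called 0 of them, with 0 at an unadjusted p under 0.05 and 0 by DESeq2, and the median log2 fold change was 0.15. At the macro-metastatic stage, where 16.1% of all genes were called higher, 1 of the 9 was called. Adamts5, another proteoglycan-cleaving protease, rose by 1.53 (SE 0.45, adjusted p = 0.0419 by edgeR) from 4.61 and 3.97 to 6.02 and 15.6 CPM. That call of 1 gene became 0 without control 1, control 2, pre-metastatic 1, pre-metastatic 2 or macro-metastatic 2, and 3 without macro-metastatic 1.

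Substrates, inhibitors and matrix partners of these proteases numbered 17 tested of 27, with a pre-metastatic median of 0.14 and 0 called (6 at an unadjusted p under 0.05, 4 by DESeq2). At the macro-metastatic stage 7 rose and 1 fell (median 0.45), against 16.1% of all genes called higher and 9.26% lower. Timp1, an inhibitor of metalloproteases, rose by 5.23 (SE 0.49) from 0.105 and 0.300 to 8.29 and 6.80 CPM, the proteoglycan Bgn by 2.65 (SE 0.26), the hyaluronan receptor Cd44 by 2.31 (SE 0.22) and the proteoglycan Sdc4 by 1.55 (SE 0.21), with adjusted p-values of 0.000562 to 0.00247 by edgeR. Timp3, a matrix-bound inhibitor of ADAMTS proteases, was the 1 that fell, by 0.55 on the log2 scale (adjusted p = 0.0432 by edgeR; named after its value was seen). The 7 became 4 without control 1 or control 2 and 2 with the marker gate, and the fall of Timp3 was not called without control 1, control 2, pre-metastatic 1 or pre-metastatic 2.

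Clade A serpins beside the members numbered 11 tested of 17, with a pre-metastatic median of -0.25 and 0 called (4 at an unadjusted p under 0.05, 4 by DESeq2). At the macro-metastatic stage Serpina3f, the neighbour that shares sequence with Serpina3g, rose by 3.20 (SE 0.29, adjusted p = 0.000517 by edgeR) from 18.97 and 14.98 to 151 and 126 CPM. Serpina3i rose by 2.26 (SE 0.21, adjusted p = 0.000550), and Serpina6, the corticosteroid-binding globulin of hepatocytes, fell by 3.41 (adjusted p = 0.00368), both by edgeR. The 2 higher and 1 lower of 11 are near the 16.1% and 9.26% of all genes. The 1 that fell became 0 without control 1 and 3 without macro-metastatic 1. Of 9 tested proteases (of 14 listed) that such serpins inhibit, or their kin, 0 were called at the pre-metastatic stage (4 at an unadjusted p under 0.05, 1 by DESeq2; median 0.91) and 5 rose at the macro-metastatic stage (median 0.95). Among the 5, the lysosomal cathepsin Ctsb rose by 1.10 (SE 0.18) from 1551 and 1394 to 2914 and 2689 CPM. The neutrophil genes Mmp9 and Prtn3 rose by 4.56 and 4.18 but stayed at or below 4.40 CPM, beside the rise of neutrophil markers given above, whose part was not tested. The 5 became 0 without control 1, 1 without control 2 and 2 with the marker gate.

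TGF-beta and BMP signalling, the pathway that Lrg1 is known to act on, numbered 29 tested of 30. At the pre-metastatic stage 0 were called (4 at an unadjusted p under 0.05, 1 by DESeq2), with a median of 0.16. At the macro-metastatic stage 5 rose and 3 fell, with a median of -0.11; these counts are near the 16.1% higher and 9.26% lower of all genes. Bmp6, the endothelial ligand that controls hepatic iron, fell by 2.12 log2 units (SE 0.14; edgeR adjusted p = 0.000168) from 275 and 290 through 171 and 151 to 57.8 and 57.5 CPM. Ccn2 fell by 2.30 (SE 0.32) and Ccn1 rose by 1.46 (SE 0.19), with adjusted p-values of 0.00247 and 0.00178 by edgeR. The 5 became 2 without control 1 or control 2, 3 without pre-metastatic 1 or pre-metastatic 2, and 8 without macro-metastatic 1, where the 3 that fell became 7. With the marker gate 3 rose and 1 fell.

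Genes listed for IL-6 and gp130 signalling to STAT3, a pathway known to induce Lrg1 and Serpina3n in liver, numbered 25 tested of 26. The list also held genes of other pathways, among them Il1r1, Nfkbiz, Tnfaip3 and Irf1, so its counts do not describe that pathway alone. At the pre-metastatic stage 0 were called (17 at an unadjusted p under 0.05, all higher, 5 by DESeq2), and the median was 0.92. At the macro-metastatic stage 19 rose and 1 fell (median 2.12), against 16.1% of all genes called higher and 9.26% lower. The kinase gene Jak2 rose by 1.61 (SE 0.15), Stat3 itself by 2.12 (SE 0.21) from 84.6 and 109 to 312 and 429 CPM, the kinase gene Pim1 by 3.20 (SE 0.35) and Tnfaip3, a brake on NF-kB, by 4.62 (SE 0.48), with adjusted p-values of 0.000517 to 0.000912 by edgeR. Tyk2 was the 1 that fell, by 0.72 on the log2 scale (named after its value was seen). The 19 became 11 without control 1 and 9 without control 2, and the 1 that fell became 2 without macro-metastatic 1 and 0 without any other single library.

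Acute-phase genes of hepatocytes numbered 24, all tested. In pre-metastatic endothelium, where 0.223% of all genes were called higher, 7 rose (median 1.42). They were led by Saa1 with 6.70 (SE 0.43, adjusted p = 0.00170), Saa2 with 7.695 (SE 0.56, adjusted p = 0.00292), Orm2 with 5.63 (SE 0.48, adjusted p = 0.00608) and Lcn2 with 4.35 (SE 0.46, adjusted p = 0.0132), by edgeR. Endothelial Saa1 went from 1.15 and 0.524 to 106 and 63.5 CPM, beside 40.1 and 40.8 to 21169 and 8843 in hepatocytes, and the carry-over ratios given above place these genes below the carried level. The 7 became 0 without control 1 or control 2, 4 without pre-metastatic 2 and 14 without macro-metastatic 1 or macro-metastatic 2. In pre-metastatic hepatocytes 14 of the 24 rose (median 2.23), where 0.99% of genes were called higher. In macro-metastatic endothelium, where 16.1% of all genes were called higher, 17 rose (median 1.62). They were led by Hp, Lcn2, Saa1 and Saa2 with 4.12, 6.03, 5.10 and 6.36 (adjusted p of 0.000168 to 0.000483 by edgeR). Against the macro-metastatic level carried over from hepatocytes, Saa1 stood at 0.756 and 0.408 and Saa2 at 0.897 and 0.432. Hp stood there at 0.895 and 0.588 and Lcn2 at 2.35 and 0.985, all from few hepatocytes. Neutrophil markers rose in these endothelial cells as given above, and their part was not tested. The 17 became 11 without control 1 and 10 without control 2.

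Endothelial activation genes numbered 18 tested of 20. Of all genes, 0.223% were called higher at the pre-metastatic and 16.1% at the macro-metastatic stage. The pre-metastatic median was 0.21. Pre-metastatic hepatocytes held the neutrophil attractant Cxcl2 at 43.4 and 146 CPM, and its carry-over from hepatocytes or neutrophils was not measured. In endothelium Cxcl2 was the 1 called at the pre-metastatic stage, with 2.68 (SE 0.36, adjusted p = 0.0423 by edgeR). Its levels were 10.7 and 7.71 against 39.2 and 75.8 CPM. That call became 0 without control 1, control 2 or pre-metastatic 2, 6 without pre-metastatic 1 and 7 without either macro-metastatic library. At the macro-metastatic stage 11 rose (median 1.62), among them Cxcl1 by 4.49, Cxcl2 by 6.18, Ccl2 by 5.04 and the adhesion molecule Icam1 by 3.95, with adjusted p-values of 0.000126 to 0.000249 by edgeR. The 11 became 7 without control 1.

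**Figure D5:**
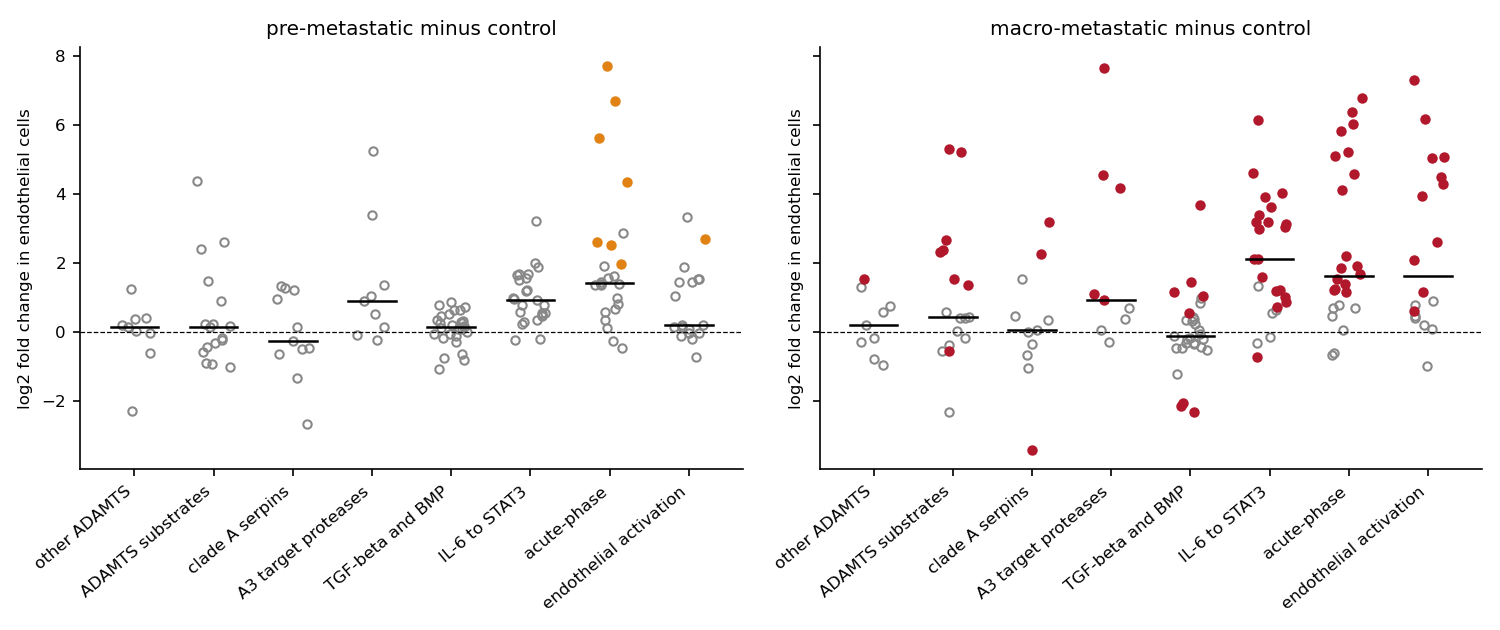
Endothelial log2 fold changes of the tested genes of 8 lists in each comparison, with filled points for genes called at an adjusted p under 0.05, open points for the rest and a black line at each median. In the pre-metastatic panel filled points appear for 7 acute-phase genes and 1 activation gene, and the IL-6 to STAT3 median is 0.92 without a filled point.

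The pattern of each gene was compared with 12421 others over 83 sums of a cell class in a library, as Pearson's r of log2(CPM + 1); the points share libraries and depth, and r is a description. Closest to Lrg1 were Lcn2 (0.85), Hp (0.84) and the neutrophil gene S100a8 (0.78). Closest to Serpina3n were Nnmt (0.73), Lbp (0.73) and Prg4 (0.71). Serpina3g was closest to Apold1 (0.80), Cxcl10 (0.79) and its neighbour Serpina3f (0.76). Adamts1 was closest to the basement membrane genes Col4a1 (0.93) and Col4a2 (0.91) and to Sparc (0.91), Adamts4 to Sele (0.78), Abi1 (0.76) and Cfap69 (0.71), and Adamts9 to Gstp2 (0.74), Abi1 (0.73) and Cfap69 (0.71). Among the 6, Lrg1 and Serpina3n had 0.59 with each other, Serpina3g had 0.63 to 0.71 with the 3 proteases, and the proteases had 0.62 to 0.70 among themselves. Lrg1 had 0.08 to 0.40 with Serpina3g and the proteases.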

How the data were processed

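Liver cell suspensions gave 6 single-cell libraries, 2 per group. The values are raw UMI counts per gene and barcode as deposited by the authors; per the submitters' processing notes they used CASAVA 1.8, UMI-tools and the mm10 build, with the aligner and the annotation not given in the sources used here. Barcodes with at least 300 genes and at most 25% mitochondrial UMIs were kept, 182 to 334 predicted doublets per library were removed, and cells were clustered (scanpy 1.11.5, Leiden resolution 1) into 41 clusters named from marker genes. Counts were summed per class and library. Changes were fitted with edgeR 4.0.16 (quasi-likelihood, TMM scaling, filterByExpr) over all 6 libraries in R 4.3.3, with Benjamini-Hochberg adjustment over all genes of a class and a threshold of 0.05. An exact permutation test of 2 libraries against 2 cannot go below p = 0.3333, so none was used. The test was checked on simulated counts.

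The 6 genes and the gene lists were chosen with earlier results of these data known. From each list and comparison, up to 4 called genes with the smallest adjusted p were named, and for each of the 6 genes the 3 others most like it. A gene that this rule names is not reported here. Alternatives were RLE size factors, DESeq2 1.42.0, no filter on low counts, a replicate block, doublets kept, a per-cell marker gate, and leaving out each library. Floors cover counting error only.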

Additional observations from a re-analysis of the deposited data

Results flagged for a closer look

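The pre-metastatic change of Serpina3g had opposite signs in endothelium and neutrophils, with every library on its group's side: a log2 fold change of 0.83 (SE 0.19) in endothelium and -2.0001 (SE 1.01) in neutrophils. The difference between the classes was not tested. The neutrophil value rests on 3 control and 5 pre-metastatic UMIs, had an adjusted p of 0.693 by edgeR's quasi-likelihood test, and was 4.22 with the per-cell marker gate.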

How the results depend on the processing

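All 144 alternative values of the 6 genes in endothelium kept their sign, and 139 moved by less than the spread between replicates. Of 245 values in hepatocytes and neutrophils, 216 kept direction and side of the threshold, 3 lost the call, 17 gained it and 9 changed sign. In pre-metastatic hepatocytes Serpina3g ranged from -0.036 (without pre-metastatic 2) to 1.14 with a library left out, and Adamts1 from -0.39 (without pre-metastatic 2; -0.22 without control 1) to 0.73. In macro-metastatic hepatocytes, Serpina3n ranged from -0.71 and Adamts1 from -7.56 (both without macro-metastatic 2; the latter with 0 UMIs and no meaning as a fold) to 2.41 and 3.88. In pre-metastatic neutrophils Serpina3g became 4.22 with the gate, and with a library left out Adamts1 ranged from -1.37 (without pre-metastatic 2; -0.44 without control 2) to 0.97 and Adamts9 from -1.54 (without pre-metastatic 2) to 9.22. The count of called genes was 29 in pre-metastatic endothelium, 218 by DESeq2, 582 with no filter, 77 with the gate and 1 to 282 with a library left out. In macro-metastatic endothelium the gate gave 1074 and leaving out a library 703 to 4391. Pre-metastatic hepatocytes gave 66 by DESeq2, 539 with no filter and 50 to 319, and macro-metastatic hepatocytes 2093 with no filter, 917 with doublets kept and 666 to 1606. Pre-metastatic neutrophils gave 22 by DESeq2, 102 with no filter and 0 to 16, and macro-metastatic neutrophils 1269 with no filter, 516 with the gate and 84 to 850. With the replicate block the pre-metastatic counts were 59 in endothelium, 344 in hepatocytes and 8 in neutrophils. Deviations of same-numbered libraries correlated by -0.04, 0.07 and 0.19 over all tested genes in endothelium. The labels do not say what same-numbered libraries share, and a shared batch was not tested. The cause of the differences between settings was not tested. The gate was not run in hepatocytes, where it left 1 and 17 macro-metastatic cells. Depth limits Adamts4 in hepatocytes and all genes but Lrg1 in control neutrophils.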
